A study of Homo sapiens with 31 samples.

Results

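The subject is the response of RIVA, an established human cell line of activated B-cell-like (ABC) diffuse large B-cell lymphoma, to ibrutinib, which blocks the kinase BTK. RIVA under 10 nM ibrutinib for 10 h (3 libraries) was compared with RIVA under the solvent DMSO for 10 h (3 libraries), and the comparison rests on 6 of the 31 samples of the series. The labels give RIVA the genotype WT, and all cells were grown in the same serum-supplemented medium. For comparison the text also uses RIVA under 60 µM Rhosin, an inhibitor of the small GTPase RHOA, for 10 h, and the ABC lymphoma lines TMD8 and HBL1 under 10 nM ibrutinib or DMSO for 10 h, each group with 3 libraries. For checking gene names it uses the expression levels of 2 TMD8 libraries with wild-type RHOA, from cells kept overnight in 50 nM copanlisib, an inhibitor of PI3K. RIVA is 1 line, and the labels do not say whether replicates were separate cultures, so p-values measure the spread between these libraries, which may be technical.

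BTK carries the signal of the B-cell receptor (BCR) to phospholipase C and protein kinase C, and this route leads to the transcription factor NF-kB. ABC lymphoma is known for chronic activity of this route, and NF-kB induces genes such as IRF4, CD83 and GADD45B in B cells. The study's title places it in BCR signalling and its control by RHOA.

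RNA was sequenced from stranded libraries, and the deposited RIVA table holds raw counts for 63140 Ensembl gene IDs. The 6 libraries held 9346652 to 14153796 counts each, of which 26.2% to 28.6% lay on rows whose IDs name mitochondrial genes. For most IDs the counts did not follow the level of the gene that the ID names. Across 14196 genes outside 7 chromosome segments, Spearman's rho between RIVA DMSO counts and the levels of the wild-type TMD8 cells under copanlisib was 0.067, and it was 0.853 across 679 genes inside them. Genes were therefore named only inside those segments, on chromosomes 4, 5, 6, 9, 11, 18 and 19, and all other rows were counted without names. A level check then asked whether a gene's TMD8 DMSO count lay within 2 log2 units of the trend against its level, or whether both were low. Of 844 genes with a level, 744 met it. The RIVA count of 116 of these lay outside the same tolerance, so their names are less certain in RIVA, and such cases are marked where their values are given. The levels are those of TMD8, so a gene whose expression differs between the lines can also lie outside the tolerance in RIVA. They also come from cells under copanlisib, whereas the counts checked come from cells under DMSO. A gene whose expression differs between those conditions can therefore miss the check in TMD8 itself. Such differences and a wrong name cannot be told apart here. The trend was fitted to genes with a level above 5 and extended to lower levels.

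Markers of the B lineage were present. PAX5, a transcription factor of the B lineage, had 4849, 5240 and 5247 CPM (the depth-scaled count, with TMM-adjusted library sizes) under ibrutinib and 4800, 4365 and 5061 CPM under DMSO, although its RIVA level lay 2.6 log2 units above the trend. The summed level of 6 B-cell markers was 6470 to 6760 CPM under ibrutinib and 5800 to 6060 CPM under DMSO, before TMM scaling. Most of it came from PAX5 (4940 to 5200 and 4380 to 4740 CPM), whose TMM-scaled values above overlapped between the groups. RHOH and CD38, also in this sum, lay outside the tolerance in RIVA as well. Of 4 myeloid markers, ELANE and PRTN3 were at 0 in all 6 libraries, and their summed level was 2.88 to 4.98 CPM under ibrutinib and 4.45 to 5.37 CPM under DMSO, most of it from CFD (2.80 to 4.98 and 4.38 to 5.19 CPM). The 3 endothelial and epithelial markers summed to 17.6 to 27.8 CPM under ibrutinib and 22.7 to 30.4 CPM under DMSO, with TEK at 0 and CRB3 and DSP detected. The melanocyte gene TYRP1 was at 0 in all 6 libraries. IL7R, a T cell gene, was at 0 under ibrutinib and at 0 to 0.0707 CPM under DMSO, and the hepatocyte gene C9 at 0 to 0.107 CPM under ibrutinib and 0 under DMSO. These levels too are before TMM scaling, and CFD, CRB3 and DSP lay outside the tolerance in RIVA. The part of such cells in the results was not tested. Fewer cells of one kind and less RNA per cell cannot be told apart in such bulk libraries.

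Few rows were called in RIVA under ibrutinib, which does not show that few changed. Of 11956 rows tested, 110 passed an adjusted p of 0.05 (0.92%), 49 higher (0.41%) and 61 lower (0.51%), by edgeR's quasi-likelihood F test with Benjamini-Hochberg adjustment over all rows. Of these 110 calls, 95 fell on rows that carry no usable name. Among the 46 unnamed rows that rose the log2 fold change ran from 0.41 to 2.24 with a median of 0.75, and among the 49 that fell it ran from -4.25 to -0.43 with a median of -1.11. Falls were the larger changes, with 30 unnamed rows lower by more than 1 log2 unit and 16 higher by more than that. The number of calls depended on single libraries. Leaving out ibrutinib replicate 3 gave 31 calls, leaving out DMSO replicate 1 gave 64, and leaving out DMSO replicate 3 gave 69. It also depended on the method, with 200 calls in DESeq2. In edgeR there were 277 with the replicate number as a block and 317 with no filter on low counts. An unadjusted p under 0.05 in the main edgeR test was reached by 1084 of the 11956 rows (9.07%).

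**Figure D1:**
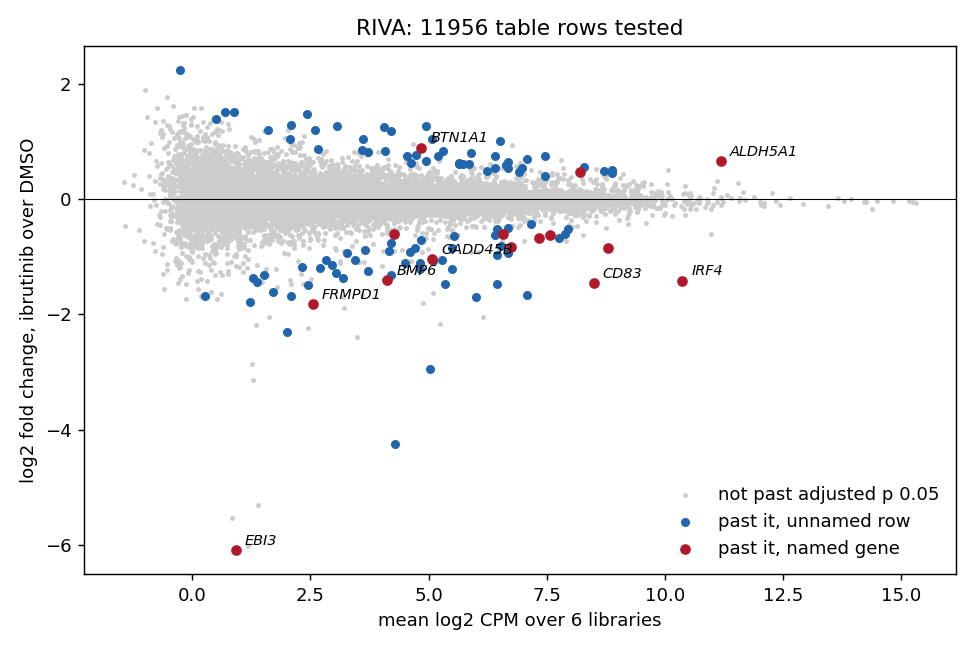
Log2 fold change of ibrutinib over DMSO (vertical) against mean log2 CPM over the 6 libraries (horizontal) for the 11956 RIVA rows tested. Grey points did not pass an adjusted p of 0.05, blue points are the 95 unnamed rows that did, and red points are the 15 genes named below; 12 red points lie below 0 and 3 above.

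Among the 556 tested genes of the segments that have a level, 15 passed, 3 higher and 12 lower. They comprise 12 of the 484 genes that met the level check (2.48%), and CD83, ANKRD33B and EBI3, which missed it. CD83 belongs to a gene list, whereas ANKRD33B and EBI3 were named after their values were seen. The 3 ibrutinib and the 3 DMSO values did not overlap in these 15 genes, which passing the test makes likely, nor in 73 of the 556 tested genes in all (13.1%). Without ibrutinib replicate 3, the 12 level-checked calls became 6.

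Because the NF-kB route lies downstream of BTK, the promoter windows of the called genes were read for the kappa B consensus, from 250 bases before to 50 bases after the RefSeq transcription start (GRCh38.p14). Of 22 windows from 13 genes, 5 windows from 5 genes held a match on either strand, against 3956 of 35116 windows in the whole table (11.3%), a share not matched for base composition. HIVEP1 and PDZD2 had no entry. The genes with a match were BMP6, CD83, GADD45B, ANKRD33B and EBI3. Of these, CD83, ANKRD33B and EBI3 missed the level check, and among level-checked genes only BMP6 and GADD45B held a match. The 5 windows are therefore mostly from genes that missed the level check. The rows of BMP6 and ANKRD33B also lay outside the tolerance in RIVA, that of BMP6 far above the trend. Both names are therefore uncertain in RIVA, and a promoter read by name has no bearing on a wrongly named row. The windows of CD83 and GADD45B are shown because both genes belong to the NF-kB list, those of BMP6 and EBI3 because both held a match and fell strongly, and that of IRF4 because it held no match. Capitals mark the matches.

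CD83, chr6:14117522-14117821, + strand: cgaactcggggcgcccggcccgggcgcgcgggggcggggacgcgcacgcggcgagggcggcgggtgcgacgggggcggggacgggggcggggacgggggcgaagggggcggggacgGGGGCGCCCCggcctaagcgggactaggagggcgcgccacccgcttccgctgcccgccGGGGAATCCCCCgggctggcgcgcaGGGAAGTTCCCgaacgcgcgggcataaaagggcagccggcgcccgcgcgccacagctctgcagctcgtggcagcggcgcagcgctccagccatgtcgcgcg
GADD45B, chr19:2475877-2476176, + strand: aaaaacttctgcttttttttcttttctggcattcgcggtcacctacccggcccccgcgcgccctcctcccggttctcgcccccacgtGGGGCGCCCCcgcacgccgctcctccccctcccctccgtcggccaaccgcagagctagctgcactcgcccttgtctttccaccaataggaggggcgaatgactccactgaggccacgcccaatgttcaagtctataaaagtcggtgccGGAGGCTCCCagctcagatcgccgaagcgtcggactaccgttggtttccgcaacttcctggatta
BMP6, chr6:7725849-7726148, + strand: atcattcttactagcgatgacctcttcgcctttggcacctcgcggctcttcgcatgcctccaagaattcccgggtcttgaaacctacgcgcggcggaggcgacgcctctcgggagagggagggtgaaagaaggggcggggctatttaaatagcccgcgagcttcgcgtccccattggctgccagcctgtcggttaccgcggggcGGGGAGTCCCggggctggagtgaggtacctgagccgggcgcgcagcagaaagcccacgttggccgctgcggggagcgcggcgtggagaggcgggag
EBI3, chr19:4229273-4229572, + strand: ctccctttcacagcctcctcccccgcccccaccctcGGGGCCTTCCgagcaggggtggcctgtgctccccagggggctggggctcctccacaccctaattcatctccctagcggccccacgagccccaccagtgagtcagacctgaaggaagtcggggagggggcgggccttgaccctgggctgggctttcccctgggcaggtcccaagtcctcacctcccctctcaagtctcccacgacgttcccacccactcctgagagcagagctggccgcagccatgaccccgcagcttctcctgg
IRF4, chr6:391502-391801, + strand: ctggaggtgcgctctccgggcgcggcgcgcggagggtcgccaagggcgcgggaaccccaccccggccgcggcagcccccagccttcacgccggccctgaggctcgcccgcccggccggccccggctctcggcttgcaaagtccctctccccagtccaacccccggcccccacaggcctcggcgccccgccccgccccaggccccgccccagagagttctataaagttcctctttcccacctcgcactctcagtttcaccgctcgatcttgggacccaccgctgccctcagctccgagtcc

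In the CD83 window, 6 matches overlapped in 3 stretches, and the nearest to the start began 50 bases before it. The BMP6 match began 46 bases before its start, those of GADD45B 163 and 15 bases before, and that of EBI3 214 bases before. ANKRD33B held the remaining match, at 241 bases before its start. A second CD83 window, around an upstream start, held none. A match is a description of letters and shows no binding.

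Of the 12 tested genes listed as NF-kB targets and regulators, IRF4, CD83, GADD45B and HIVEP1 fell. Over all rows 0.51% were called lower, and 12 of the 556 tested segment genes. The list was written with earlier results of these data known, so its count is not independent evidence. IRF4 (chromosome 6, 391739 to 411447, plus strand, GENCODE v29 on GRCh38) encodes a transcription factor on which ABC lymphoma cells depend. It had 725, 886 and 849 CPM under ibrutinib, against 1865, 1875 and 2842 CPM under DMSO, and fell by 1.42 on the log2 scale (SE 0.16, edgeR adjusted p = 0.00119). Every ibrutinib library lay far below every DMSO library, and DMSO replicate 3 was the highest of all; without it the fall was 1.21 (SE 0.11, edgeR adjusted p = 7.06e-05). CD83 (chromosome 6, 14117256 to 14136918, plus strand), a surface marker of activated B cells and dendritic cells, had 270, 192 and 196 CPM under ibrutinib and 705, 499 and 605 CPM under DMSO. Its fall was 1.46 (SE 0.17, edgeR adjusted p = 0.00184). In both groups replicate 1 was the highest for this gene, yet the groups stayed apart. CD83 missed the level check narrowly, at 2.05 log2 units from the TMD8 trend, and lay 1.78 from the trend in RIVA.

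GADD45B (chromosome 19, 2476122 to 2478259, plus strand) encodes a stress-response protein that restrains cell death signalling. It had 21.7, 26.9 and 22.2 CPM under ibrutinib, against 49.7, 38.1 and 58.9 CPM under DMSO, a fall of 1.05 (SE 0.15, edgeR adjusted p = 0.00316). HIVEP1 (chromosome 6, 12008762 to 12164999, plus strand) encodes a zinc-finger protein that binds kappa B-like DNA. Its values were 130, 121 and 137 CPM under ibrutinib and 199, 179 and 240 CPM under DMSO, a fall of 0.67 (SE 0.11, edgeR adjusted p = 0.00919). The ibrutinib libraries of both genes were tight, and the spread was wider under DMSO. The HIVEP1 call was lost without ibrutinib replicate 3 (-0.71, edgeR adjusted p = 0.0554).

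A cytokine subunit, a growth factor and a matrix protein were also lower. EBI3 (chromosome 19, 4229498 to 4237531, plus strand), the shared subunit of interleukin 27 and interleukin 35, had only 1, 4 and 1 counts under ibrutinib, against 79, 74 and 261 counts under DMSO. Pooled over libraries and scaled for depth, the ratio of ibrutinib to DMSO was 0.0157 (exact 95% interval 0.00571 to 0.0344, which covers counting error only). The fitted change was -6.09 (SE 1.1, edgeR adjusted p = 0.0461), and DMSO replicate 3 stood well above both other DMSO libraries. Without that library the fitted change was -4.97 (SE 0.46, edgeR adjusted p = 0.000105). Leaving out any 1 ibrutinib library lost the call, with edgeR adjusted p of 0.155 to 0.248, although the change stayed between -7.05 and -5.60. The call was also lost without the Rhosin libraries, which share the fit (edgeR adjusted p = 0.128), and with no filter on low counts (0.144). EBI3 lay 4.05 log2 units from the trend in TMD8 and missed the level check there, and 0.19 from it in RIVA.

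BMP6 (chromosome 6, 7726797 to 7881422, plus strand), a ligand of the TGF-beta family that controls iron balance through the liver, had 8.86, 12.1 and 11.2 CPM under ibrutinib and 29.2, 24.4 and 31.2 CPM under DMSO. It fell by 1.40 (SE 0.17, edgeR adjusted p = 0.00119). Both groups were narrow and lay well apart. The BMP6 row was far above the trend in RIVA, by 12.1 log2 units, so its name is uncertain there. The size of that deviation depends on how the trend was extended to low levels. EMILIN2 (chromosome 18, 2847030 to 2915993, plus strand), a glycoprotein of the extracellular matrix, had 141, 168 and 149 CPM under ibrutinib, against 227, 212 and 265 CPM under DMSO, a fall of 0.62 (SE 0.10, edgeR adjusted p = 0.00861). Without ibrutinib replicate 3 its change was -0.61 and no longer passed (edgeR adjusted p = 0.0806).

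Scaffold, cytoskeletal and glycan genes made up the other falls. FRMPD1 (chromosome 9, 37651000 to 37746904, plus strand), a FERM and PDZ domain protein, had 1.86, 3.50 and 4.21 CPM under ibrutinib and 10.5, 7.33 and 15.5 CPM under DMSO, a fall of 1.82 (SE 0.31, edgeR adjusted p = 0.0101). PDZD2 (chromosome 5, 31639410 to 32110931, plus strand), a protein with multiple PDZ domains, had 74.8, 92.9 and 75.8 CPM under ibrutinib, against 131, 150 and 151 CPM under DMSO, a fall of 0.83 (SE 0.11, edgeR adjusted p = 0.00187). The RIVA rows of both lay outside the tolerance, at -2.17 for FRMPD1 and 2.92 for PDZD2, so both names are uncertain in RIVA. ANKRD33B (chromosome 5, 10564330 to 10657816, plus strand) had 328, 382 and 294 CPM under ibrutinib and 677, 499 and 633 CPM under DMSO, a fall of 0.85 (SE 0.12, edgeR adjusted p = 0.00357), on a row that also lay outside the tolerance in RIVA (3.33).

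GCNT2 (chromosome 6, 10492223 to 10629368, plus strand), the enzyme that branches poly-lactosamine chains into the I blood group antigen, had 70.8, 88.9 and 74.4 CPM under ibrutinib, against 120, 113 and 122 CPM under DMSO, a fall of 0.60 (SE 0.11, edgeR adjusted p = 0.0146). The call was lost without ibrutinib replicate 3 (edgeR adjusted p = 0.130) and without DMSO replicate 1 (0.0541). SPIRE1 (chromosome 18, 12446512 to 12658134, minus strand), which nucleates actin filaments, had 13.5, 16.6 and 16.3 CPM under ibrutinib and 23.2, 23.9 and 23.3 CPM under DMSO, a fall of 0.61 (SE 0.13, edgeR adjusted p = 0.0333). This was the least stable of the falls by number of calls kept, with the call lost whenever any 1 of the 6 libraries was left out (edgeR adjusted p 0.0503 to 0.131). The SPIRE1 call was also lost without the Rhosin libraries (edgeR adjusted p = 0.0927). PSMG2 overlaps SPIRE1 on the other strand, and whether the counting used strand is not given in the sources used here.

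The 3 genes that rose all lay outside the level tolerance in RIVA, by 4.01 log2 units for ALDH5A1, 5.34 for BTN1A1 and 2.67 for STX18, so their names are uncertain there. ALDH5A1 (chromosome 6, 24494852 to 24537207, plus strand), the mitochondrial enzyme that completes the breakdown of GABA, had 2931, 2801 and 3025 CPM under ibrutinib, against 1832, 2015 and 1706 CPM under DMSO, a rise of 0.66 (SE 0.097, edgeR adjusted p = 0.00389). BTN1A1 (chromosome 6, 26501221 to 26510422, plus strand), a butyrophilin known from the milk fat globule, had 41.55, 34.52 and 41.31 CPM under ibrutinib and 22.0, 20.8 and 20.6 CPM under DMSO, a rise of 0.89 (SE 0.15, edgeR adjusted p = 0.00861). STX18 (chromosome 4, 4415742 to 4542346, minus strand), a membrane fusion protein of the endoplasmic reticulum, had 365, 335 and 350 CPM under ibrutinib, against 265, 278 and 218 CPM under DMSO, a rise of 0.46 (SE 0.10, edgeR adjusted p = 0.0434). The groups of all 3 genes were separate, with the smallest gap in STX18. The BTN1A1 call was lost without ibrutinib replicate 3 (edgeR adjusted p = 0.0729). That of STX18 was lost without any 1 library other than DMSO replicate 2 (edgeR adjusted p 0.0666 to 0.218), and without the Rhosin libraries (0.111). ALDH5A1 overlaps GPLD1, and STX18 overlaps NSG1, each on the other strand.

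**Figure D2:**
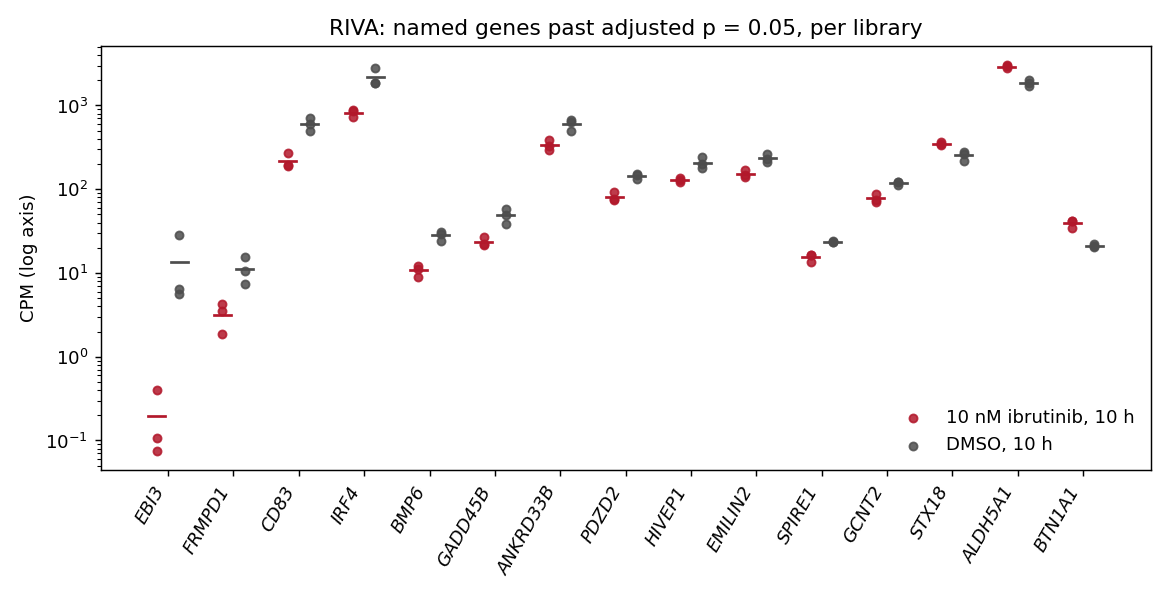
CPM on a log axis (vertical) for the 15 named genes that passed, ordered from the largest fall to the largest rise; red points are the 3 ibrutinib libraries of each gene, grey points the 3 DMSO libraries, and bars their means. Red and grey points are separate in every gene, and the DMSO points of EBI3 run from 5.65 to 28.7 CPM.

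DMSO replicate 3 was the highest DMSO library in 9 of the 12 genes that fell, and in 274 of the 556 tested genes (49.3%). Several uncalled genes shared that feature. CD274, the gene of the immune checkpoint protein PD-L1, had 5.66, 6.40 and 4.85 CPM under ibrutinib and 9.66, 7.16 and 47.0 CPM under DMSO, and its change of -1.88 (SE 0.74) did not pass (edgeR adjusted p = 0.508). Without DMSO replicate 3 the CD274 change was -0.60, and its RIVA level lay outside the tolerance. PTGER4, a receptor for prostaglandin E2, had 7.59, 3.50 and 4.75 CPM under ibrutinib, against 24.8, 11.8 and 48.7 CPM under DMSO. Its change of -2.39 (SE 0.52, edgeR adjusted p = 0.117) became -1.78 with an edgeR adjusted p of 0.0489 without that library, and it also passed without DMSO replicate 2 (0.00336), with the replicate block (0.0485) and in DESeq2 (adjusted p = 0.0016). PTGER4 missed the level check in TMD8 and was named after its values were seen. The part of this library in the results was not tested beyond leaving it out.

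Of the 12 level-checked genes that came next by unadjusted p, 4 were higher and 8 lower, and none passed. LPCAT1, an enzyme of phosphatidylcholine remodelling, had 358, 386 and 353 CPM under ibrutinib and 504, 430 and 619 CPM under DMSO (-0.50, SE 0.11, edgeR adjusted p = 0.0546). IRF7, the factor that drives type I interferon genes, had 42.7, 55.7 and 47.5 CPM under ibrutinib, against 72.8, 75.5 and 130 CPM under DMSO (-0.93, SE 0.20, edgeR adjusted p = 0.0621). The groups did not overlap in either gene. IRF7 passed without DMSO replicate 1, 2 or 3 (edgeR adjusted p = 0.0273, 0.0446 and 0.0442) and LPCAT1 without DMSO replicate 2 (0.0114). Both also passed in DESeq2 (adjusted p = 0.000401 in IRF7 and 0.00693 in LPCAT1) and in edgeR with no filter on low counts, and LPCAT1 with the replicate block and without mitochondrial rows. MIDN, which targets nuclear proteins for breakdown by the proteasome, was at 0.43 (SE 0.11, edgeR adjusted p = 0.103), and ACO1, the iron-sensing cytosolic aconitase, at -0.33 (SE 0.087, edgeR adjusted p = 0.111). The others ran from -1.11 in KLF3 to 0.34 in STIM2, a calcium sensor of the endoplasmic reticulum, with adjusted p of 0.149 to 0.263; they were BTN2A2, PLEKHG4B, ATXN1, KANK1, ALDH1B1 and CD151. KLF3 and PLEKHG4B lay outside the tolerance in RIVA. MIDN passed without ibrutinib replicate 1 (edgeR adjusted p = 0.0469) and ALDH1B1 without DMSO replicate 2 (0.0326). In DESeq2, MIDN, ACO1, CD151 and PLEKHG4B passed, with adjusted p of 0.0381, 0.0316, 0.0457 and 0.0456. With the replicate block MIDN, ACO1, BTN2A2, ATXN1, ALDH1B1 and CD151 passed in edgeR, and with no filter all of these but ACO1 did.

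The gene lists were read by their counts beside the background of 0.41% of rows higher and 0.51% lower, and beside median log2 changes of -0.010 over all rows and -0.062 over the level-checked genes. Calls were more frequent in the segments, where all tested list members lie. Of the 484 level-checked genes 3 were higher and 9 lower, and of the 556 tested genes 3 were higher and 12 lower. The lists were written with earlier results of these data known, so their counts are not independent evidence. In the list of NF-kB targets and regulators, 4 of 12 tested members fell (IRF4, CD83, GADD45B and HIVEP1), none rose, and the median was -0.37. TNIP2, an inhibitor of NF-kB activation, had 12.8, 18.1 and 13.4 CPM under ibrutinib and 21.9, 15.3 and 22.6 CPM under DMSO, which overlapped (-0.43, edgeR adjusted p = 0.407). SERPINB9, an inhibitor of granzyme B, was at -0.22 (edgeR adjusted p = 0.478), and CD70, a ligand of the TNF family, at -0.30 (edgeR adjusted p = 0.751). The 7 members of the list that were too low to test included IL7R, CCL19 and CCL21. RIPK1, SERPINB1, TNFSF9 and TICAM1 were tested and did not pass, and TICAM1, like CD83, missed the level check.

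**Figure D3:**
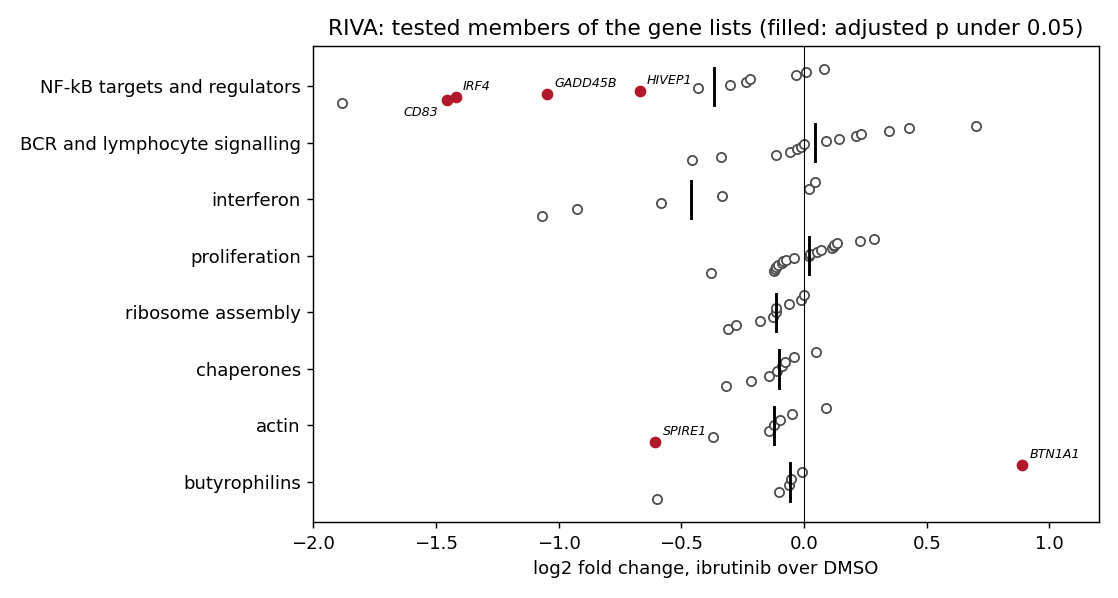
Log2 fold change of ibrutinib over DMSO in RIVA (horizontal) for the tested members of 8 gene lists (rows). Filled red points passed an adjusted p of 0.05, open points did not, and black bars are list medians; the NF-kB row holds 4 filled points below 0, and the BCR, interferon, proliferation, ribosome assembly and chaperone rows hold none.

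None of the 14 tested members of the list of BCR and lymphocyte signalling passed, and the median was 0.04. An unadjusted p under 0.05 was reached by 3 of the 14, against 1084 of the 11956 rows (9.07%) and 57 of the 484 level-checked genes (11.8%). RHOH, an adaptor-like GTPase of lymphocytes, had 755, 796 and 871 CPM under ibrutinib and 652, 686 and 726 CPM under DMSO, groups that did not overlap (0.23, edgeR adjusted p = 0.393). LY86, the partner of the toll-like receptor homologue RP105, was at 0.43 (edgeR adjusted p = 0.351, and 0.0326 with no filter on low counts), CD72, an inhibitory co-receptor, at -0.34 (edgeR adjusted p = 0.363), TLR1 at 0.35 (edgeR adjusted p = 0.618) and SHB, an adaptor of tyrosine kinases, at -0.46 (edgeR adjusted p = 0.618). RHOH lay just outside the tolerance in RIVA. Of 6 tested interferon genes none passed and 3 had an unadjusted p under 0.05, beside the same 9.07% and 11.8%. Their median was -0.46, with IFITM1, an antiviral membrane protein, at -0.58 (edgeR adjusted p = 0.336) and JAK2, a cytokine receptor kinase, at -0.33 (edgeR adjusted p = 0.499). IFITM1 missed the level check in TMD8 and passed with no filter on low counts (edgeR adjusted p = 0.0296) and without ibrutinib replicate 2 (0.0485), and JAK2 lay outside the tolerance in RIVA. VAV1, ARHGAP45, FYB1, DDX58, NSD2 and BRIX1, members of these and the following lists, were not matched to a level in the segments and are not analysed here.

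The proliferation, ribosome assembly and chaperone lists held no call. Of 19 tested proliferation genes 1 had an unadjusted p under 0.05, a smaller share than the 9.07% of all rows and the 11.8% of level-checked genes, and the median was 0.02. UHRF1, a cofactor that copies DNA methylation after replication, had 767, 900 and 825 CPM under ibrutinib and 687, 631 and 725 CPM under DMSO (0.29, edgeR adjusted p = 0.269); its RIVA level lay just outside the tolerance. None of 9 ribosome assembly genes passed (median -0.11), and none of 8 chaperone genes (median -0.10). NOL6 was at -0.28 and PAK1IP1 at -0.31 among the ribosome assembly genes, and TXNDC5, a disulfide isomerase, at -0.32 among the chaperones, with edgeR adjusted p of 0.880, 0.704 and 0.297. In the actin list SPIRE1 fell and the other 6 tested members did not pass. Of 6 butyrophilins BTN1A1 rose, while BTN2A2 was at -0.60 (SE 0.17, edgeR adjusted p = 0.149) with 22.0, 34.7 and 28.3 CPM under ibrutinib, against 35.8, 50.7 and 41.8 CPM under DMSO. Of the plasma cell markers, IRF4 fell, CD38 was at 0.16 (edgeR adjusted p = 0.767) and TXNDC5 did not pass; the summed level of these 3 rows was 1460 to 1540 CPM under ibrutinib and 2580 to 3320 CPM under DMSO. CD38 lay outside the tolerance in RIVA.

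The same dose and time of ibrutinib were set beside RIVA in TMD8 and HBL1. In TMD8 4220 of 11403 rows passed (37%; 17.1% higher and 19.9% lower), and in HBL1 13 of 11905 (0.109%). HBL1 replicates carrying the same number deviated together, and with the replicate number as a block HBL1 had 1055 calls (8.86%, with 4.11% higher and 4.75% lower). HBL1 replicates 1 and 3 also deviated together across numbers (r = 0.236 and 0.225 between ibrutinib and DMSO). Replicate 2 stood apart from them (r = -0.472 to -0.376). The common biological coefficient of variation was 0.134 in RIVA, 0.106 in TMD8 and 0.202 in HBL1, so the counts of calls do not compare sizes of effect. Of the rows called higher in RIVA and tested in TMD8, 27 of 39 were also higher in TMD8 (69.2% of the RIVA list and 1.69% of the TMD8 list) and 0 were lower. Of those called lower in RIVA, 30 of 56 were also lower in TMD8 (53.6% and 1.38%) and 9 were higher. Over all rows tested in both, 15.7% were higher and 21.3% lower in TMD8. With the block in HBL1, 13 of 29 rows higher in RIVA were higher there (44.8% and 2.91%) and 29 of 59 lower rows were lower (49.2% and 5.48%), against 4.31% and 5.11% of all rows; 1 and 2 rows were called in the opposite direction.

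Of the 15 named genes, 14 were tested in TMD8, where 7 were called in the same direction and 2 in the opposite one. Calls were frequent there, with 272 of the 558 tested segment genes called. Of the 477 level-checked genes tested in TMD8, 90 were higher and 148 lower. IRF4, CD83, EBI3, EMILIN2, ANKRD33B and SPIRE1 fell and BTN1A1 rose in TMD8 as well. The TMD8 calls of ANKRD33B (-0.29) and BTN1A1 (0.88) were both lost without TMD8 DMSO replicate 1 or 2 or ibrutinib replicate 1 or 2, with edgeR adjusted p of 0.0506 to 0.135. In HBL1, 13 of the 15 were tested and 7 were called with the block, beside 82 of the 549 tested segment genes. The 7 were CD83, EBI3, EMILIN2, ANKRD33B, FRMPD1, SPIRE1 and ALDH5A1, all in the RIVA direction. Without the block EBI3 alone passed in HBL1 (-1.20, SE 0.18, edgeR adjusted p = 0.0469), and it did not pass when any 1 HBL1 library was left out (edgeR adjusted p 0.120 to 0.303). IRF4 was at -0.9998 in HBL1 with the block (SE 0.22, edgeR adjusted p = 0.0565). Without the block it did not pass in the main edgeR fit. It passed in DESeq2 (-1.04, SE 0.22, adjusted p = 0.000901) and in edgeR with no filter on low counts (-1.05, SE 0.14, adjusted p = 1.17e-10). The smaller p without the filter came with a smaller SE at nearly the same change.

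**Figure D4:**
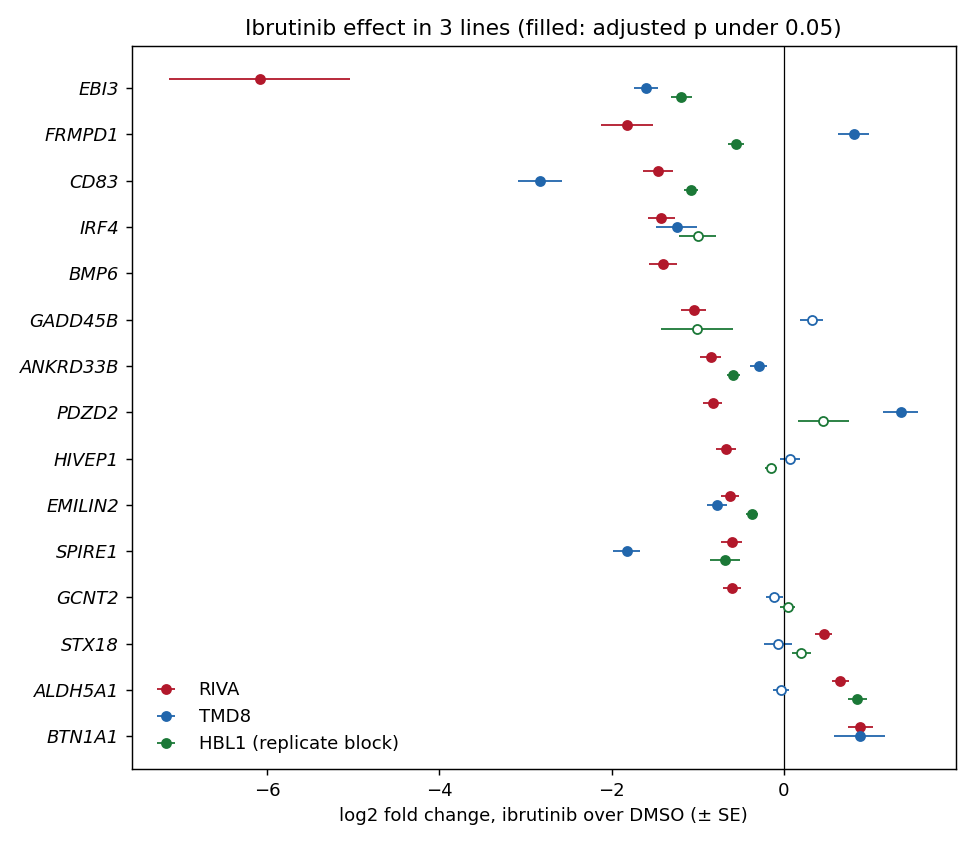
Log2 fold change of ibrutinib over DMSO with its SE (horizontal) for the 15 named genes (rows) in RIVA (red), TMD8 (blue) and HBL1 with the replicate block (green). Filled points passed an adjusted p of 0.05; PDZD2 and FRMPD1 lie below 0 in RIVA and above 0 in TMD8, and BMP6 was tested in RIVA alone of the line-wise fits.

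The difference between lines was tested as an interaction in 1 model of all 27 drug libraries. The ibrutinib effect in RIVA minus that in TMD8 passed for 827 of 14367 rows (5.76%), 334 higher (2.32%) and 493 lower (3.43%), by edgeR's quasi-likelihood F test. The count was 475 without RIVA ibrutinib replicate 1, 478 without RIVA ibrutinib replicate 3 and 489 without RIVA DMSO replicate 2. It was 402 without TMD8 DMSO replicate 1, 353 without TMD8 ibrutinib replicate 2 and 543 without TMD8 ibrutinib replicate 3. Of the 15 named genes 6 differed, a share to be read with the fact that they were chosen on RIVA libraries that this contrast also uses.

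PDZD2 had 15.9, 26.7 and 26.6 CPM under ibrutinib and 7.64, 10.1 and 9.22 CPM under DMSO in TMD8, a rise of 1.36 (SE 0.20, edgeR adjusted p = 5.21e-05), and it fell in RIVA. The difference of RIVA minus TMD8 was -2.25 (SE 0.25, edgeR adjusted p = 1.02e-05). FRMPD1 had 71.8, 105 and 81.6 CPM under ibrutinib, against 40.7, 56.3 and 50.1 CPM under DMSO in TMD8, a rise of 0.81 (SE 0.18, edgeR adjusted p = 0.00286), and differed by -2.70 (SE 0.42, edgeR adjusted p = 0.000541). Groups did not overlap in either line for either gene. EBI3 fell more in RIVA than in TMD8, by -4.52 (SE 0.96, edgeR adjusted p = 0.00837); in TMD8 it had 90.7, 60.2 and 82.5 CPM under ibrutinib and 273, 225 and 210 CPM under DMSO. That difference reached an edgeR adjusted p of 0.0501 without RIVA ibrutinib replicate 1 (-4.06).

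SPIRE1 fell less in RIVA than in TMD8, with a difference of 1.16 (SE 0.19, edgeR adjusted p = 0.000577), and its TMD8 values were 7.07, 6.76 and 6.62 CPM under ibrutinib, against 25.0, 22.6 and 24.8 CPM under DMSO. ANKRD33B fell more in RIVA, with a difference of -0.62 (SE 0.16, edgeR adjusted p = 0.0217), and GCNT2 fell in RIVA and was at -0.11 in TMD8, with a difference of -0.55 (SE 0.16, edgeR adjusted p = 0.0355). The ANKRD33B difference no longer passed without RIVA DMSO replicate 1 (-0.53), RIVA ibrutinib replicate 1 (-0.61) or 3 (-0.53), or TMD8 ibrutinib replicate 3 (-0.58). That of GCNT2 no longer passed without RIVA DMSO replicate 1, 2 or 3, RIVA ibrutinib replicate 1 or 3, TMD8 DMSO replicate 1, or TMD8 ibrutinib replicate 1, 2 or 3, with values of -0.58 to -0.46. For IRF4 the difference was -0.23 (SE 0.31, edgeR adjusted p = 0.746), a test too wide to show that the lines act alike. CD83 fell in TMD8 by 2.83, and the difference of 1.32 (SE 0.52) did not pass (edgeR adjusted p = 0.154). GADD45B was at 0.32 in TMD8 (edgeR adjusted p = 0.0714) and differed by -1.43 (SE 0.55, edgeR adjusted p = 0.140).

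Among level-checked genes, the largest called differences of RIVA minus TMD8 by absolute size were ZNF77 (-4.69), GNA15 (-3.67), FRMPD1, PDZD2, CRB3 (-1.93) and ATP8B3 (-1.92). With genes that missed the level check included, EBI3 (-4.52) would rank second and NAT8L (2.20) sixth, a gene named after its value was seen. ZNF77, a zinc-finger gene, had 0, 0 and 0 counts under ibrutinib and 1, 1 and 3 counts under DMSO in RIVA, and GNA15, a G protein alpha subunit of blood cells, had 2, 3 and 6 counts under ibrutinib and 5, 10 and 44 counts under DMSO. Both were too low to be tested in RIVA alone, and their fitted differences depend on the prior count and are no bounds. Neither passed without RIVA DMSO replicate 3, where the differences were -3.91 in ZNF77 and -2.10 in GNA15. Nor did either pass without RIVA ibrutinib replicate 1, 2 or 3, without TMD8 DMSO replicate 1, without TMD8 ibrutinib replicate 2, or with no filter on low counts, and GNA15 also did not without TMD8 DMSO replicate 3 or ibrutinib replicate 3. Over these settings the edgeR adjusted p ran from 0.0559 to 0.198 in ZNF77 and from 0.0503 to 0.308 in GNA15. CRB3, a cell polarity protein, was at -0.22 in RIVA (edgeR adjusted p = 0.874) and rose by 1.65 in TMD8, and ATP8B3, a lipid flippase, was at -0.74 in RIVA (edgeR adjusted p = 0.625) and rose by 1.12 in TMD8. GNA15 and CRB3 lay outside the tolerance in RIVA.

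The ibrutinib effect in RIVA minus that in HBL1 passed for 0 of 14367 rows in edgeR, with 816 rows at an unadjusted p under 0.05 and 21 calls in DESeq2. With the replicate block it passed for 158 rows (1.1%), of which 62 were higher (0.432%) and 96 lower (0.668%). The 15 named genes were chosen on RIVA libraries that this contrast also uses, 12 of them as lower under ibrutinib. With that limit, 5 of the 15 differed in the blocked fit, each with a lower value in RIVA. They were PDZD2 (-1.27, SE 0.25, edgeR adjusted p = 0.00603), FRMPD1 (-1.25, SE 0.22, edgeR adjusted p = 0.00264), EBI3 (-4.73, SE 0.60, edgeR adjusted p = 0.000923), GCNT2 (-0.64, SE 0.14, edgeR adjusted p = 0.0109) and HIVEP1 (-0.50, SE 0.11, edgeR adjusted p = 0.0100). For IRF4 and CD83 the blocked differences were -0.39 (SE 0.28) and -0.36 (SE 0.20), with edgeR adjusted p of 0.703 and 0.579.

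Rhosin at 60 µM and ibrutinib at 10 nM in RIVA were read against the same DMSO libraries, so their changes share those controls. IRF4 had 738, 920 and 893 CPM under Rhosin, beside the ibrutinib values above, and changed by -1.37 against DMSO (SE 0.16). CD83 had 263, 183 and 253 CPM under Rhosin and also changed by -1.37 (SE 0.17). Set directly against each other, Rhosin minus ibrutinib was 0.05 in IRF4 (SE 0.15, edgeR adjusted p = 0.873) and 0.09 in CD83 (SE 0.17, edgeR adjusted p = 0.807). Rhosin and ibrutinib libraries overlapped in both genes.

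Over all rows 1128 of 11956 differed between the drugs (9.43%), and 5 of the 15 named genes did. The 15 were chosen on ibrutinib libraries that this comparison also uses. The count of rows was 409 without ibrutinib replicate 3, 498 without Rhosin replicate 2 and 500 without Rhosin replicate 3. SPIRE1 went in opposite directions against DMSO, with 28.6, 31.0 and 33.6 CPM under Rhosin, all above DMSO, and a Rhosin minus ibrutinib difference of 1.01 (SE 0.12, edgeR adjusted p = 0.000481). HIVEP1 was higher under Rhosin than under ibrutinib by 0.43 (SE 0.11, edgeR adjusted p = 0.0287), and ALDH5A1 by 0.35 (SE 0.097, edgeR adjusted p = 0.0371). GCNT2 was lower under Rhosin by -0.52 (SE 0.11, edgeR adjusted p = 0.0103), and ANKRD33B by -0.56 (SE 0.12, edgeR adjusted p = 0.0124). The SPIRE1 and GCNT2 differences passed with each library left out in turn. That of ANKRD33B did not pass without Rhosin replicate 1 (-0.51), that of ALDH5A1 without ibrutinib replicate 1 (0.34), 2 (0.31) or 3 (0.37) or Rhosin replicate 2 (0.33) or 3 (0.28), and that of HIVEP1 without ibrutinib replicate 1 (0.43), 2 (0.37) or 3 (0.47) or Rhosin replicate 1 (0.42) or 3 (0.36).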

How the data were processed

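RNA was sequenced from 27 libraries of 3 lymphoma lines under DMSO, ibrutinib or Rhosin, 3 per group. The authors deposited raw counts per Ensembl gene ID for these, and log2 values per gene symbol for TMD8 cells under 50 nM copanlisib, of which the 2 wild-type libraries served here as levels for checking names. The submitters' processing notes list STAR, RSEM, cutadapt, bcl2fastq and Picard, and the builds hg19 and GRCh37; which tool made which table is not given in the sources used here. Positions came from GENCODE v29 (GRCh38, 58126 of 63140 IDs) and symbols from a table of Ensembl names; no coordinate was converted between builds.

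The 9 libraries of a line entered a joint fit of treatment means in edgeR 4.0.16 (R 4.3.3, filterByExpr, TMM, robust quasi-likelihood F test), with Benjamini-Hochberg adjustment over all rows tested and a call at an adjusted p under 0.05. Differences between lines were interaction contrasts over all 27 libraries. DESeq2 1.42.0 was an alternative. The SE of a log2 change is its size divided by the square root of F. The members and lists were chosen with earlier results of these data known.

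The level check took 4 forms, all run after the data were seen. The first form, a local regression that let a level under 5 pass only with a low count, removed 142 genes. Genes known from earlier results, among them CD83 and BTN1A1, were then inspected, and the rule was replaced by the one used here, which removes 100 and readmits BTN1A1. A straight line removed 112 and a constant offset 105. CD83 missed the check under every form (2.05 to 2.08), and the tolerance was not widened.

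Named genes were the level-checked genes that passed, the next 12 by unadjusted p, the tested list members and the 6 largest called differences between lines; others are marked where they appear. The fit was tested on simulated data. For RIVA, counts were drawn with 1 coefficient of variation (0.134) for all rows and with no deviating library. Of rows with a true log2 change of -1 the fit called 68.1%, of those with 1 it called 90.0%, and of unchanged rows 0.0866%. Real libraries deviate more, so these shares do not carry over to the data. No pair of libraries within a group agreed within sampling noise. Same-numbered libraries correlated at 0.409, 0.623 and 0.296 in HBL1, which met the criterion for pairing (over 0.1 in every pair), and at 0.393, 0.156 and 0.085 in RIVA and 0.207, 0.08 and -0.001 in TMD8, which did not. Promoters came from RefSeq (GRCh38.p14) by symbol. Reads carried no molecular identifiers named in the labels, so intervals cover counting error only.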

Additional observations from a re-analysis of the deposited data

Results flagged for a closer look

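The effect of ibrutinib differed between RIVA and TMD8, by a test of the difference itself, in 10 of the named genes. Over all rows it differed in 827 of 14367 (5.76%). PDZD2, FRMPD1, EBI3, ANKRD33B, GCNT2 and SPIRE1 were chosen on RIVA libraries that this test also uses. ZNF77, GNA15, CRB3 and ATP8B3 were named because this test called them, so the count of 10 is no result about the named genes. With 1 library left out, the calls of EBI3, ANKRD33B, GCNT2, ZNF77 and GNA15 could be lost. RIVA minus TMD8 was -2.25 in PDZD2 and -2.70 in FRMPD1, which were called in opposite directions in the 2 lines, and -4.52 in EBI3, -0.62 in ANKRD33B, -0.55 in GCNT2 and 1.16 in SPIRE1. It was also -4.69 in ZNF77, -3.67 in GNA15, -1.93 in CRB3 and -1.92 in ATP8B3, of which ZNF77 and GNA15 rest on counts of 0 to 44 in RIVA libraries.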

How the results depend on the processing

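Of the 15 named genes, ALDH5A1, ANKRD33B, BMP6, CD83, FRMPD1, GADD45B, IRF4 and PDZD2 kept their calls in 12 of 12 alternatives, and none of the 15 changed direction in RIVA. BTN1A1, EMILIN2 and HIVEP1 kept theirs in 11, GCNT2 in 10, EBI3 in 7, STX18 in 6 and SPIRE1 in 5. The 110 calls in RIVA became 200 in DESeq2, 317 with no filter on low counts and 277 with the replicate block, and ran from 31 to 115 with 1 library left out. Without the Rhosin libraries, which share the fit, they were 77, and the calls of EBI3, SPIRE1 and STX18 were lost. The 12 level-checked genes became 23 with no filter and 21 with the block, and ran from 6 to 14 with 1 library left out; they were 11 with the level check as first written, 8 with the check made in RIVA and 15 with none, the counts of 11 and 8 added after the data were seen. The labels do not say what same-numbered RIVA libraries share. Ibrutinib and DMSO libraries of the same number correlated at 0.393, 0.156 and 0.085 in RIVA. Ibrutinib replicates 1 and 3 correlated best with their own number, and ibrutinib replicate 2 with DMSO replicate 3 (0.175 against 0.156 with its own number). Whether the RIVA libraries are paired is therefore not settled here.

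In HBL1 the 13 calls became 103 in DESeq2, 126 with no filter and 1055 with the block, and ran from 0 to 7 with 1 library left out; in TMD8 the 4220 ran from 3144 to 4071. RIVA minus TMD8 had 827 calls, 2369 with the block, and 353 to 866 with 1 library left out. RIVA minus HBL1 had 0 calls, 21 in DESeq2, 13 with no filter and 158 with the block, and 0 to 4 with 1 library left out. Rhosin against ibrutinib in RIVA had 1128 calls, 2013 with the block, and 409 to 970 with 1 library left out. The causes were not tested.

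Values that changed sign were all uncalled, and each is given as its range with 1 library left out. CNN2 in RIVA ran from -0.63 to 0.03. RIVA minus TMD8 ran from -0.98 to 2.45 in BMP6, -0.39 to 0.05 in IRF4, -0.02 to 0.24 in EMILIN2 and -0.31 to 0.12 in BTN1A1. Rhosin minus ibrutinib in RIVA ran from -0.04 to 0.15 in IRF4, -0.02 to 0.25 in CD83 and -0.06 to 0.07 in EMILIN2, which was also at -0.00 under RLE scaling and DESeq2. In TMD8, ALDH5A1 ran from -0.06 to 0.03, HIVEP1 ran from -0.04 to 0.22 and STX18 from -0.18 to 0.08. In HBL1, HIVEP1 ran from -0.43 to 0.16, GCNT2 from -0.04 to 0.15 and STX18 from -0.13 to 0.46.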
